A study of Mus musculus with 2 samples.

Results

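Among cultured mouse hepatocytes, 117 cells of the expansion library are described here for their high level of Spp1, the gene of osteopontin. They are the 10% of cells with the highest share of Spp1 UMIs (counted transcript molecules) among 1172 cells. Those 1172 remained of 1208 barcodes once 17 had failed the limits of at least 500 genes and at most 25% mitochondrial UMIs, and 19 more had been removed for 3 or more UMIs of S100a6. The other 1055 expansion cells served for comparison. Because Spp1 counts chose the cells, and every gene was counted in the same cells, all differences between these groups are descriptions, and no test was made.

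Single cells were profiled with a droplet protocol (10x Genomics Chromium) from primary hepatocytes of C57BL/6 liver grown as 3-dimensional cultures in Matrigel, a basement membrane gel. The expansion medium held 3 uM CHIR99021, a GSK3 inhibitor that stabilises beta-catenin, and TNFa, an inflammatory cytokine, at 100 ng/mL. The induction medium had neither of these and held 3 uM dexamethasone, a synthetic glucocorticoid. Both media held EGF at 25 ng/mL, HGF at 50 ng/mL, the ROCK inhibitor Y27632 at 10 uM, the TGF-beta receptor inhibitor A83-01 at 1 uM, nicotinamide at 100 mM, N-acetylcysteine at 1.25 mM, and the B27 and N2 supplements in William E medium. Each medium had 1 library, and the labels give no number, sex or age of the animals.

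Osteopontin is a secreted, phosphorylated matrix protein that binds integrins and the hyaluronan receptor CD44. In healthy liver it is known as a product of bile duct cells, and after injury also of progenitor-like ductular cells, of hepatocytes and of macrophages. Sox9, a transcription factor of ducts, and Cd24a, a surface glycoprotein of progenitor cells, are commonly used beside it as markers.

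Spp1 lies on chromosome 5 from 104435118 to 104441050 (GRCm38, plus strand), at the end of a row of related genes that code for bone and tooth matrix proteins. The sequences of 250 bases upstream of the RefSeq start sites (build GRCm38.p6) are shown for Spp1, which defined the cells, and for the 2 genes among those furthest above the other cells whose upstream bases held the core of an AP-1 site, the motif bound by Fos and Jun proteins. Capitals mark TGANTCA, read on both strands. Spp1 is chr5:104434861-104435110 (plus strand), Sprr1a is chr3:92485882-92486131 (minus strand) and Tinagl1 is chr4:130175123-130175372 (minus strand).
Spp1 upstream: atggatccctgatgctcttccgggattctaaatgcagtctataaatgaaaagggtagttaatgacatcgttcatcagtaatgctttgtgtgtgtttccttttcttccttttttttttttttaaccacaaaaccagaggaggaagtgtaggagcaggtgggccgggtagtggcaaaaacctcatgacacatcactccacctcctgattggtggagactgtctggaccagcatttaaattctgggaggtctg
Sprr1a upstream: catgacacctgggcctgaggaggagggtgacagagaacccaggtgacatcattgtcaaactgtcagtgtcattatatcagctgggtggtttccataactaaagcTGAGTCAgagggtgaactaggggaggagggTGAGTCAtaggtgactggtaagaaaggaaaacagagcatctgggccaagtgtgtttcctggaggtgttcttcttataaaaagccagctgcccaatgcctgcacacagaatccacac
Tinagl1 upstream: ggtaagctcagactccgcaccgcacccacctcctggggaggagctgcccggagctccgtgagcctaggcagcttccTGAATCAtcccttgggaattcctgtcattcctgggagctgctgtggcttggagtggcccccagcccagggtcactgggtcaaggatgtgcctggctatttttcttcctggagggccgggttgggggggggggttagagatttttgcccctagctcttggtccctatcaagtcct
The Spp1 window held 0 matches, Sprr1a 2 and Tinagl1 1. Of the 15 leading genes described below, 10 had an entry, and 2 of the 10 held the motif in at least 1 window, against 7.82% of all 27025 genes with an entry. The TEAD core GGAATG stood in 2 of the 10 (Tinagl1 and Timp1) and in 14.4% of all genes. Spp1 and Tinagl1 each have a second start site in RefSeq, whose windows held no AP-1 match. No window of these 10 genes or of Spp1 held the RBPJ letters GTGGGAA, the TCF/LEF letters CTTTGAT or an NF-kB consensus, which 6.18%, 3.72% and 0.414% of all genes held. A match of letters is a description, and no binding was measured.

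The expansion library held 29545561 UMIs and the induction library 9305593, and 4 cell barcodes occurred in both. The osteopontin-high cells had a median of 25266 UMIs and 3930 genes per cell, and the other expansion cells 22669 UMIs and 3808 genes. Mitochondrial UMIs made up a median of 5.75% in the osteopontin-high cells and 6.39% in the others. Doublet calling with Scrublet marked 3 of the 1172 cells, and 0 of these were osteopontin-high. Levels are given as CPM, the UMIs of a gene summed over the cells of a group and scaled to 1000000 UMIs of that group. The intervals given are at the 95% level and hold counting error alone, because cells from a single library do not replicate it.

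Spp1 was found in nearly every expansion cell, and the cells chosen were the upper end of a continuous range. Per cell it ran from 2682 to 29278 CPM in the osteopontin-high cells, with a median of 3890.4 CPM. In the other expansion cells it ran from 0 to 2649.6 CPM, with a median of 630.2 CPM, and 3 of them held no Spp1 UMI. The last cell inside the limit held 83 Spp1 UMIs and 2682 CPM, and the first outside held 88 UMIs and 2649.6 CPM, so the limit falls in no gap. Summed over cells, Spp1 stood at 5299.5 CPM in the osteopontin-high cells and 809 CPM in the others, a log2 ratio of 2.71 that the choice of cells fixed.

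**Figure D1:**
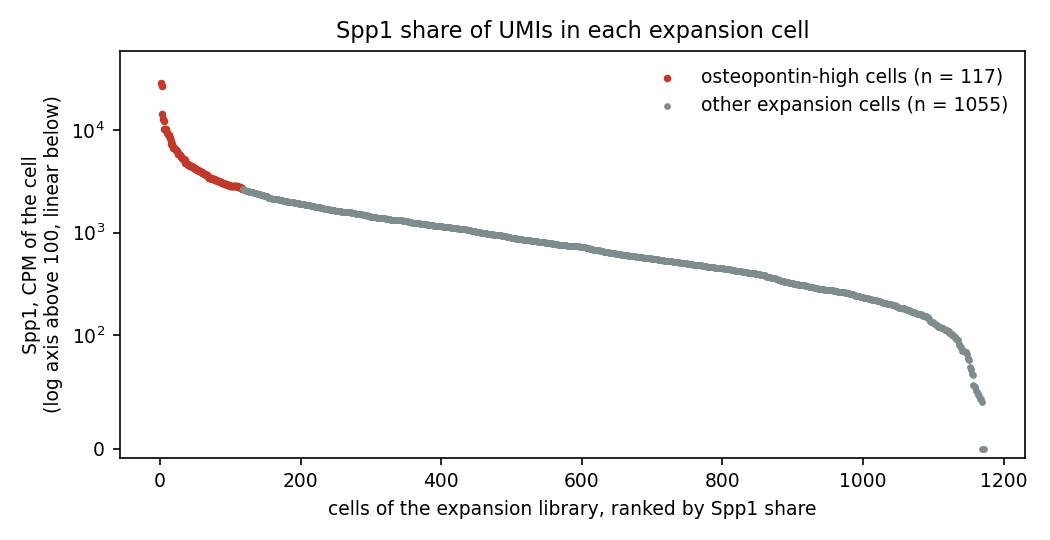
Spp1 share of each expansion cell in CPM (vertical, log axis above 100 and linear below), with the 1172 cells ranked from highest to lowest (horizontal); red points are the 117 osteopontin-high cells and grey points the other 1055. The points form 1 continuous curve, which passes the limit near 2682 CPM without a step and spreads up to 29278 CPM at its upper end.

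The other 2 markers of the label did not separate these cells. Cd24a per cell had a median of 391.7 CPM and a highest value of 1617 CPM in the osteopontin-high cells, against a median of 366 CPM and a highest value of 2109 CPM in the others. Sox9 per cell had a median of 84.3 CPM and a highest value of 533 CPM in the osteopontin-high cells, against 96.3 and 613 CPM in the others. Both genes overlapped fully between the groups. Summed, Cd24a stood at 450.4 and 409 CPM (log2 ratio 0.14, 0.06 to 0.22) and Sox9 at 90.1 and 106 CPM (-0.24, -0.42 to -0.06) in the osteopontin-high and the other cells. After each cell was thinned to 5000 UMIs, Cd24a was found in 83.8% of the osteopontin-high cells (75.8 to 89.9) and 80.0% of the others (77.5 to 82.4), and Sox9 in 35.9% (27.2 to 45.3) and 44.0% (41.0 to 47.0). Without thinning, the shares were 97.4% and 98.7% for Cd24a, and 77.8% and 86.0% for Sox9. No cell type that should lack these genes was present in number, so the share that free RNA gives was not tested. Of the 117 osteopontin-high cells, 14 were also in the top 10% of cells by Cd24a share, 10 by Sox9 share and 11 by share of Prom1, another progenitor surface marker. These cells are therefore named here by their Spp1 level and not as a ductal or progenitor type.

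Classical bile duct genes were at or close to 0 in both groups. Krt7, a duct keratin, had 0 UMIs in all 1172 cells, and Krt19, another, had 0 UMIs in the osteopontin-high cells and 1 in the others. With 3 UMIs as the floor, a count of 0 allows up to 0.955 CPM in the osteopontin-high cells and 0.117 CPM in the others. Epcam, an epithelial adhesion molecule of ducts, stood at 4.46 CPM in both groups. Genes are called higher or lower here when they reached 20 CPM in the higher group with a ratio of at least 1.5 and an interval that excludes 1. By that rule 156 of 4389 measured genes (3.55%) were higher in the osteopontin-high cells and 202 (4.6%) lower, and the median log2 ratio of all measured genes was -0.04. Without Spp1, 8 of 17 ductal and progenitor genes were measured, 1 was higher and 0 lower, with a median log2 ratio of -0.05. That gene was Sox4, a transcription factor active in progenitor cells, at 313 CPM in the osteopontin-high cells and 202 CPM in the others (0.64, 0.54 to 0.74). Clu, the secreted chaperone clusterin and the most abundant of the list, stood at 10308 and 6959 CPM, a log2 ratio of 0.57 (0.55 to 0.58) that stayed below the 1.5-fold limit. Prom1 stood at 48.1 CPM in the osteopontin-high cells and 66.8 CPM in the others (-0.47, -0.72 to -0.23).

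The genes next to Spp1 were not detected in the same cells. Ibsp, Dmp1, Dspp and Mepe, the other members of its family of integrin-binding matrix proteins, lie between bases 104170712 and 104338611 of chromosome 5 and had 0 UMIs in both groups. Receptors of osteopontin were called in neither direction. Of 10 receptor genes 4 were measured and 0 called, with a median log2 ratio of 0.01. Cd44, which also binds hyaluronan, stood at 739 CPM in the osteopontin-high cells and 724 CPM in the others (0.03, -0.03 to 0.09). Itgav, the alpha subunit of several integrins that bind the RGD sequence of osteopontin, stood at 539 and 621 CPM (-0.20, -0.28 to -0.13). Of its partners, Itgb1 stood at 66.9 and 66.6 CPM, and Itgb5 at 25.2 and 25.0 CPM. Notch signalling, which drives Sox9 in ducts, had 4 of 12 genes measured and 0 called. Its ligand gene Jag1 stood at 27.4 and 18.5 CPM (0.56, 0.21 to 0.90), its DNA-binding factor Rbpj at 31.8 and 43.5 CPM (-0.45, -0.76 to -0.15), and the target Hes1 at 27.1 and 26.4 CPM.

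Cytoskeletal, epithelial and secreted genes were among those with the highest ratios. Among genes of at least 100 CPM, Marcks, a membrane protein that cross-links actin, had the highest ratio. Its per-cell values had a median of 0 and a highest value of 1071 CPM in the osteopontin-high cells, and a median of 0 and a highest value of 882 CPM in the others. At least 1 Marcks UMI was found in 51 of 117 osteopontin-high cells and in 207 of 1055 others. The ranges overlapped, and the groups differed in how many cells held the gene and in how much such cells held. After thinning to 5000 UMIs, 27.4% of the osteopontin-high cells (19.5 to 36.4) and 6.82% of the others (5.38 to 8.52) held it. Without thinning, the 51 osteopontin-high cells held 368 Marcks UMIs and the 207 others 471. Summed, Marcks stood at 117 and 18.4 CPM (2.67, 2.47 to 2.87).

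Tuba1a, an alpha-tubulin of regenerating and immature cells, had a per-cell median of 30.2 CPM and a highest value of 1224 CPM in the osteopontin-high cells, against 0 and 858 CPM in the others. Its sums were 123 and 22.5 CPM (2.45, 2.26 to 2.64), and alpha-tubulin genes are similar enough that the split of UMIs among them is uncertain. Sprr1a, a cornified-envelope protein of stressed epithelia, stood at 177 and 32.8 CPM (2.44, 2.28 to 2.59). The difference rested on few cells: 10 cells held 87.6% of the Sprr1a UMIs of the osteopontin-high group, and 34 of the 117 held any. Ccl7, a chemokine that attracts monocytes, stood at 112 and 24.2 CPM (2.21, 2.02 to 2.41), and 10 cells held 67.7% of its UMIs in that group.

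Several more abundant genes were higher in a broader share of the cells. Ccl2, the main monocyte chemokine and the neighbour of Ccl7 on chromosome 11, had a per-cell median of 831 CPM and a highest value of 6444 CPM in the osteopontin-high cells, against a median of 318 CPM and a highest value of 9749 CPM in the others. Summed, it stood at 1573 and 618 CPM (1.35, 1.30 to 1.39). Vim, the intermediate filament vimentin, had per-cell medians of 332 and 160.1 CPM and sums of 507 and 230.2 CPM (1.14, 1.06 to 1.22) in the osteopontin-high and the other cells. Lgals1, the galactose-binding lectin galectin-1, had per-cell medians of 674 and 339 CPM and sums of 1033 and 468 CPM (1.14, 1.08 to 1.20). The ranges of all 3 genes overlapped between the groups.

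Tm4sf4, a membrane protein that slows hepatocyte growth in rat, stood at 468 CPM in the osteopontin-high cells and 174 CPM in the others (1.43, 1.34 to 1.51). Timp1, a secreted inhibitor of metalloproteases, stood at 186 and 75.9 CPM (1.29, 1.16 to 1.43). Tinagl1, a secreted matricellular protein, stood at 181 and 67.1 CPM, and Ccnd2, a G1 cyclin, at 295 and 128.9 CPM. The small GTPase gene Rhoc, the actin-binding Sorbs2, the cell cycle inhibitor Cdkn2a and Sh3bgrl3 completed the 15 highest ratios, with log2 ratios between 1.09 and 1.13.

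**Figure D2:**
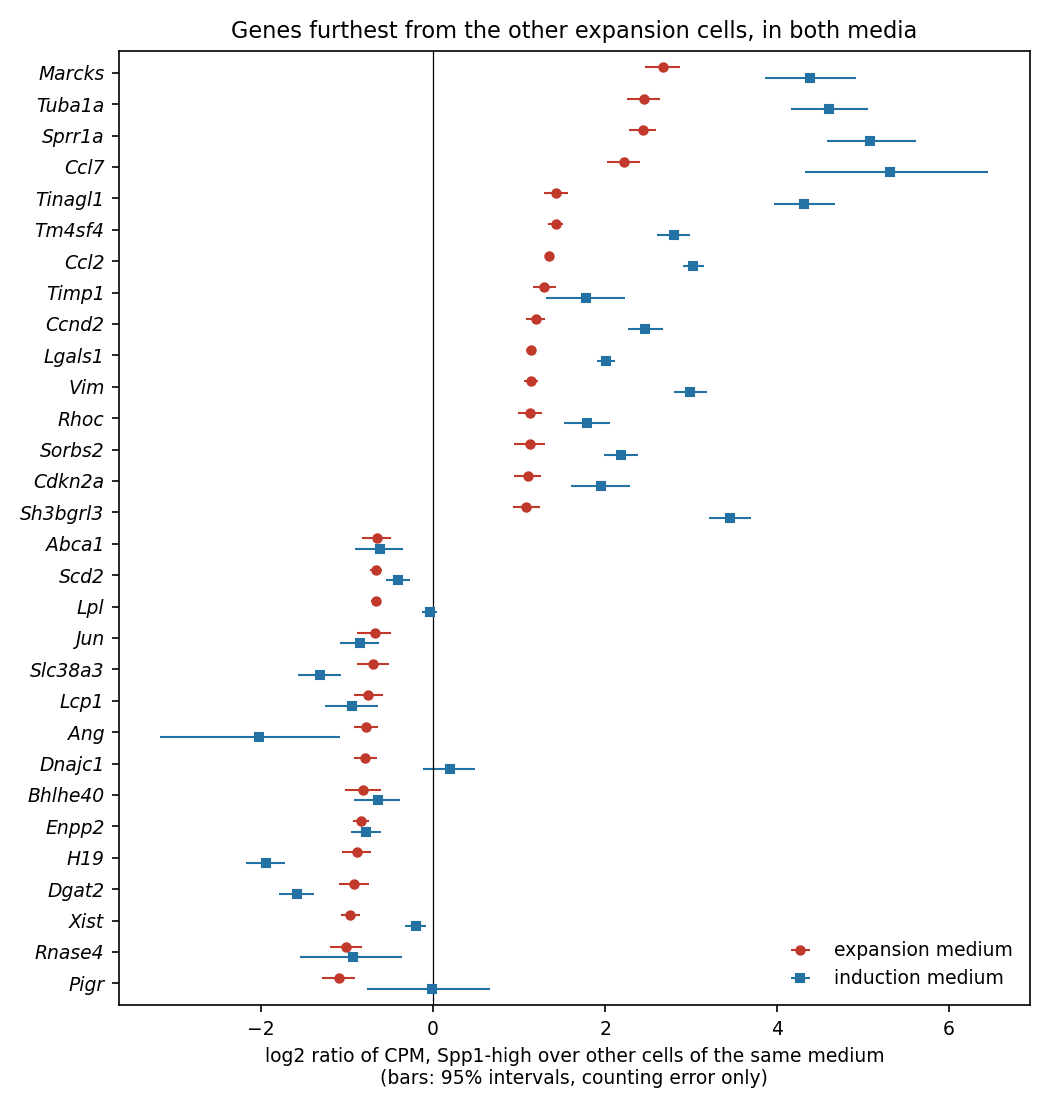
Log2 ratio of CPM in Spp1-high cells over the other cells of the same medium (horizontal; bars are 95% intervals for counting error) for the 15 highest and the 15 lowest ratios of the expansion library among called genes of at least 100 CPM; red circles are the expansion library and blue squares the induction library. The 15 upper genes lie right of 0 in both libraries, while Pigr, Xist, Lpl and Dnajc1 sit near 0 in the induction library (-0.02, -0.20, -0.04 and 0.19).

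By gene group, cytoskeletal genes and cell cycle inhibitors were called in 1 direction. Of 20 measured annexin, S100 and cytoskeleton genes, 8 were higher and 0 lower (median log2 ratio 0.46). Beside Tuba1a, Vim and Lgals1 these were Anxa3, Tmsb4x, Anxa2, Cd63 (0.75) and Anxa5 (0.68). Anxa3 stood at 25.8 CPM in the osteopontin-high cells and 4.46 CPM in the others (2.53). In the osteopontin-high group 10 cells held 79.0% of the Anxa3 UMIs, and 23 of the 117 held any. Tmsb4x, which sequesters actin monomers, stood at 1220.2 and 579.6 CPM (1.07), and Anxa2, a membrane-binding annexin, at 209 and 116 CPM (0.85). Of 9 cell cycle inhibitors and p53 targets, 5 were higher and 0 lower (median 0.62). They were Cdkn2a at 132 and 61.8 CPM (1.10, 0.94 to 1.26), its neighbour Cdkn2b (0.89), the kinase inhibitor gene Cdkn1a at 160.2 and 91.9 CPM (0.80, 0.66 to 0.94), the p53 ubiquitin ligase gene Mdm2 (0.69) and the p53 target Phlda3 (0.62). Keratin and junction genes were split, with 4 of 10 higher and 1 lower (median 0.30). The higher ones were the hepatocyte keratins Krt18 at 797 and 403 CPM (0.98, 0.92 to 1.05) and Krt8 at 259 and 147 CPM (0.82), the tight junction gene Cldn3 at 104 and 55.1 CPM and the plakoglobin gene Jup, and the gap junction gene Gjb2 was lower at 36.9 and 61.8 CPM.

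Growth factor feedback and protease genes had members with high ratios at low levels. Of 6 measured genes for ERK feedback and EGF family ligands, 3 were higher and 0 lower (median 0.46). Hbegf, an EGF receptor ligand, stood at 36.0 CPM in the osteopontin-high cells and 13.3 CPM in the others (1.44, 1.12 to 1.75), Dusp5, an ERK phosphatase, at 22.6 and 13.6 CPM, and the receptor gene Epha2 at 38.5 and 23.6 CPM. In the whole osteopontin-high group, 10 cells held 53.1% of the Hbegf UMIs and 66.2% of the Dusp5 UMIs. Among the 17 osteopontin-high and 298 other cells with Xist and no Y-linked UMI, Hbegf (-0.22) and Dusp5 (-0.09) were not higher. Both genes were under 20 CPM in those cells, so neither could be called. Matrix and remodelling genes were called in both directions, with 2 of 10 higher and 2 lower. Plat, which activates plasminogen, stood at 22.0 and 3.83 CPM (2.52, 2.05 to 2.98), while Mmp15, a membrane metalloprotease, stood at 14.7 and 31.3 CPM (-1.10).

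Inflammatory genes were called in both directions. Of 12 NF-kB targets 1 was higher, the adhesion molecule Vcam1 at 302 CPM in the osteopontin-high cells and 147.9 CPM in the others (1.03, 0.92 to 1.13), and 1 was lower, the apoptosis inhibitor Birc3 at 50.0 and 78.1 CPM. The feedback inhibitor Nfkbia stood at 512 and 514 CPM. Of 10 chemokines and cytokines, Ccl2 was higher and Tnf lower at 8.28 and 23.3 CPM (-1.49, -2.12 to -0.93), and Cxcl1 stood at 861 and 1108 CPM. Ccl7 and Ccl5, whose levels are given elsewhere in the text, are not on that list. Acute phase proteins had 1 of 15 measured genes higher and 0 lower (median 0.17). That gene was Orm2 at 187 and 108 CPM (0.79, 0.66 to 0.92), which shares sequence with Orm1, so their split is uncertain. In the osteopontin-high group 10 cells held 65.5% of the Orm2 UMIs, and 56 of the 117 held any. Of 13 immediate early genes, Ier3 was higher at 136 and 72.3 CPM, and Jun at 71.3 and 114 CPM, Fosb and Egr1 were lower.

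Genes of G2 and mitosis were lower. Of 7 measured G2/M genes, 7 were lower and 0 higher (median -1.08). Top2a, the topoisomerase of dividing cells, stood at 17.5 CPM in the osteopontin-high cells and 48.2 CPM in the others (-1.46, -1.88 to -1.07), Ube2c, which marks mitotic cyclins for destruction, at 18.5 and 50.1 CPM (-1.44, -1.84 to -1.06), and Cenpa, the centromeric histone, at 32.8 and 56.1 CPM (-0.77, -1.08 to -0.49). The summed 20 listed genes had a per-cell median of 54.9 CPM and a highest value of 2138 CPM in the osteopontin-high cells, against 88.5 and 3943 CPM in the others, so the ranges overlapped. At least 2 G2/M genes were found in 46.2% of the osteopontin-high cells (36.9 to 55.6) and 56.2% of the others (53.2 to 59.2), and after thinning to 5000 UMIs in 15.4% (9.38 to 23.2) and 26.2% (23.5 to 28.9). Among cells with fewer than 2 G2/M genes, 63 osteopontin-high and 462 others, 214 genes were called higher (4.97%) and 304 lower (7.06%). S phase genes had 0 of 6 higher and 1 lower, the chromatin remodeller Hells (-0.73).

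Lipid, hypoxia and hepatocyte regulator genes also had calls on the low side alone. Of 7 measured hypoxia and glycolysis genes, 2 were lower and 0 higher (median -0.23), the growth factor gene Vegfa at 12.1 CPM in the osteopontin-high cells and 25.7 CPM in the others (-1.08) and the mitochondrial Bnip3 (-0.73). Of 16 lipid and cholesterol synthesis genes, 5 were lower and 0 higher (median -0.49). They included Lss, which closes the sterol ring, at 24.2 CPM in the osteopontin-high cells and 45.0 CPM in the others (-0.89), Acaca, the first enzyme of fatty acid synthesis, the lipogenic regulator Srebf1, and the desaturase Scd2 at 534 and 844 CPM (-0.66). Dgat2, which makes triglyceride, stood at 91.1 and 172 CPM (-0.91), the lipoprotein lipase gene Lpl at 829.7 and 1316 CPM (-0.67), and the cholesterol exporter Abca1 at 96.2 and 151 CPM (-0.65). The lowest ratio among genes of at least 100 CPM belonged to Pigr, which carries IgA across epithelia, at 76.1 and 163 CPM (-1.10, -1.29 to -0.91). Rnase4, a secreted ribonuclease, stood at 78.7 and 158 CPM, and its relative Ang at 141 and 240.6 CPM. They overlap on chromosome 14, so the split between them is uncertain. Enpp2, which makes lysophosphatidic acid, stood at 323 and 575 CPM (-0.83, -0.93 to -0.74). H19, an imprinted fetal RNA, stood at 96.2 and 178 CPM (-0.89), but 10 cells held 89.1% of the UMIs in the osteopontin-high group, and with the top 20% of cells the ratio was 0.09.

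**Figure D3:**
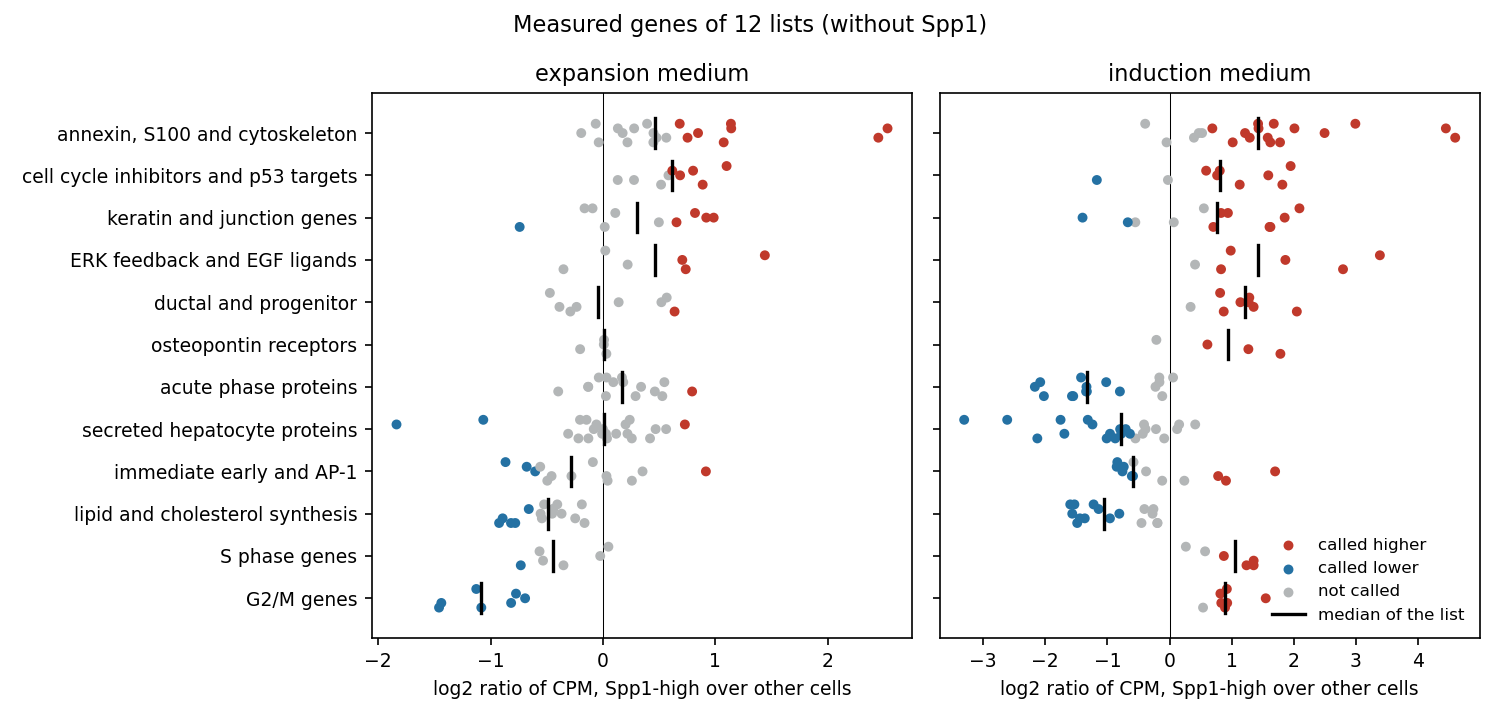
Log2 ratio of CPM in Spp1-high cells over the other cells of the same medium (horizontal) for the measured genes of 12 lists (vertical), in the expansion library on the left and the induction library on the right; red points were called higher, blue lower and grey neither, and black bars are list medians. In expansion medium the annexin and inhibitor lists have medians of 0.46 and 0.62 and the G2/M list -1.08, and secreted hepatocyte proteins centre on 0.01 in expansion medium and -0.78 in induction medium.

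Hepatocyte identity genes were at like summed levels in both groups. The 10 hepatocyte markers together took 58605 CPM in the osteopontin-high cells and 57196 CPM in the others, and 0 of the 10 were called. Alb, serum albumin, stood at 1804 and 1771 CPM, Trf, transferrin, at 13300.2 and 15329.6 CPM and Hp, haptoglobin, at 17198 and 15301 CPM. Of 22 secreted hepatocyte proteins, 1 was higher, the vitamin D binding protein gene Gc at 3591 and 2168 CPM (0.73), and 2 were lower, Apoa2 at 17.8 and 37.3 CPM and the corticosteroid carrier Serpina6 at 19.7 and 70.6 CPM (-1.84). The Serpina6 value is not stable, because it was 0.02 with the top 20% of cells and 0.11 when the cells were chosen on a random part of the UMIs and described on the rest. Of 7 hepatocyte transcription factors, Rxra and Nr5a2 were lower and 0 higher, and Hnf4a stood at 79.0 and 96.5 CPM (-0.29, -0.48 to -0.10). Macrophage markers had 7 UMIs in the osteopontin-high cells and 62 in the others, with 10 and 9 of the 12 genes at 0, Ptprc and Adgre1 among them, and 2.23 and 2.43 CPM in all. Stellate cell and fibroblast markers had 9 of 10 genes at 0 in the osteopontin-high cells, where Reln alone gave 14.97 CPM, against 31.8 CPM in the others.

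Of the transcripts of the sex chromosomes, Xist was lower in the osteopontin-high cells and the Y-linked genes were level. Xist, the RNA that silences an X chromosome in female cells, stood at 226 CPM in the osteopontin-high cells and 439.8 CPM in the others (-0.96, -1.07 to -0.85). The 4 Y-linked genes together stood at 85.7 and 87.7 CPM. Among the osteopontin-high cells, 55 had Y-linked and no Xist UMIs (47.0%, 37.7 to 56.5). Xist and no Y-linked UMIs were found in 17 (14.5%, 8.70 to 22.2). The numbers among the others were 445 (42.2%, 39.2 to 45.2) and 298 (28.2%, 25.5 to 31.1). Both kinds of transcript were found in 32 osteopontin-high cells and 239 others, with a median of 1 Xist UMI, and neither in 13 and 73. Over deciles, 10 equal groups of cells ordered by Spp1 share, the number with Xist alone was 67, 59, 42, 33 and 30 in the lower 5. It was 14, 22, 13, 18 and 17 in the upper 5, with no order among these. The part of the sex-linked split in the other differences was not tested. Among cells with Y-linked and no Xist UMIs, 282 genes (6.42%) were called higher and 229 (5.21%) lower, which included 130 of the 156 and 105 of the 202. Among cells with Xist and no Y-linked UMIs, where 17 osteopontin-high cells remained, 261 (5.43%) were higher and 453 (9.42%) lower, including 83 and 129.

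Levels over the deciles are a description, since the highest decile is the osteopontin-high group itself and the genes called were chosen for their level there. Spp1 stood at 118, 237, 352, 485, 639.9, 848, 1130.2, 1482, 2098 and 5299.5 CPM over the deciles, in order. Marcks stayed between 7.92 and 30.8 CPM in the lower 9 deciles and stood at 117 CPM in the highest. Ccl2 stayed between 494 and 776 CPM in the lower 9 and stood at 1573 CPM in the highest. Clu was higher toward the upper deciles, with 5392 CPM in the lowest decile, 9267 CPM in the ninth and 10308 CPM in the highest. Pigr stayed between 137 and 185 CPM in the lower 9 deciles and stood at 76.1 CPM in the highest. Enpp2 was lower toward the upper deciles, with 782 CPM in the lowest, 603 in the fifth, 408 in the ninth and 323 in the highest.

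**Figure D4:**
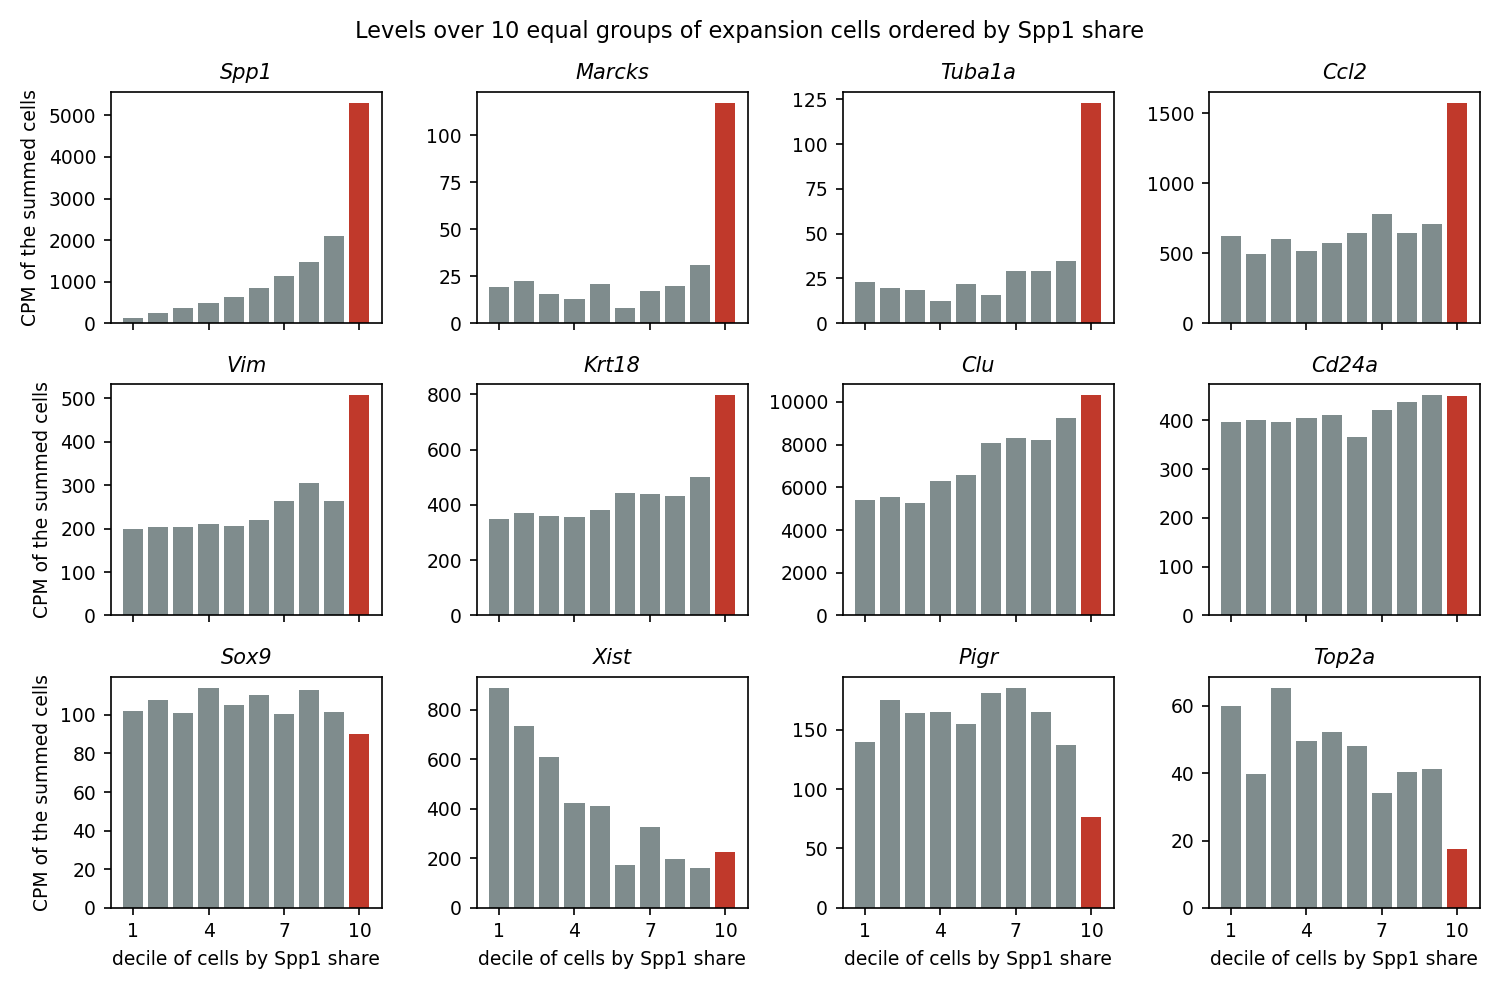
CPM of 12 genes (vertical, linear axes from 0) in 10 equal groups of the 1172 expansion cells ordered from lowest to highest Spp1 share (horizontal); the red bar is the decile of osteopontin-high cells. Marcks stands between 7.92 and 30.8 CPM in the lower 9 deciles and at 117 CPM in the last, Clu at 5392 CPM in the first and 10308 CPM in the last, and Sox9 between 90.1 and 114 CPM throughout.

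The 4 highest ratios among genes of at least 100 CPM, those of Marcks, Tuba1a, Sprr1a and Ccl7, came from a portion of the osteopontin-high cells. Their summed share per cell ran from 0 to 5042 CPM with a median of 112 CPM in the osteopontin-high cells, and from 0 to 4840 CPM with a median of 29.3 CPM in the others. A limit of 200 CPM, set after the values had been seen, was reached by 47 of 117 osteopontin-high cells (40.2%, 31.2 to 49.6) and 95 of 1055 others (9.005%, 7.35 to 10.9). The sum is a range and not a type: 11 osteopontin-high and 55 other cells lay between 150 and 250 CPM, and 31 and 494 had none of the 4 genes.

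Osteopontin-high cells over this limit held less Alb, Trf and Hp than those under it, and the other cells did too. Alb per cell had a median of 358 CPM in the 47 cells at or over the limit and 2211 CPM in the 70 under it, with ranges of 37.1 to 8838 CPM and 139 to 9436 CPM that overlapped. Summed, Alb stood at 759 and 2636 CPM, Trf at 7179 and 18173 CPM, Hp at 8832 and 23857 CPM, and the acute phase protein Saa3 at 7185 and 25308 CPM. In the opposite direction, Vim stood at 760 CPM at or over the limit and 305 CPM under it, Krt18 at 1161 and 506 CPM, and Spp1 at 6689 and 4193 CPM. Among the other cells, the 95 at or over the limit and the 960 under it differed in the same directions. Summed, Alb stood at 1138 and 1837 CPM there, Trf at 9865 and 15892.5 CPM, Hp at 9669 and 15881 CPM. Saa3 stood at 8705 and 18663.5 CPM, Vim at 471 and 205 CPM, Krt18 at 721 and 370 CPM, and Spp1 at 1005 and 789 CPM. Of 4590 measured genes, 718 were higher and 646 lower in the 47 cells than in the 70. Tubb2b, a beta-tubulin, stood at 137 and 7.44 CPM, the actin-binding Tmsb4x at 2297 and 363 CPM, and Igfbp3, which binds insulin-like growth factors, at 174 and 29.7 CPM. On the low side, Orm1 stood at 125 and 885 CPM, the fibrinogen gene Fgg at 298 and 1475 CPM, and Fabp1, the fatty acid carrier of liver, at 144 and 779.6 CPM. These genes were taken from the largest ratios of the split, after the values had been seen.

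**Figure D5:**
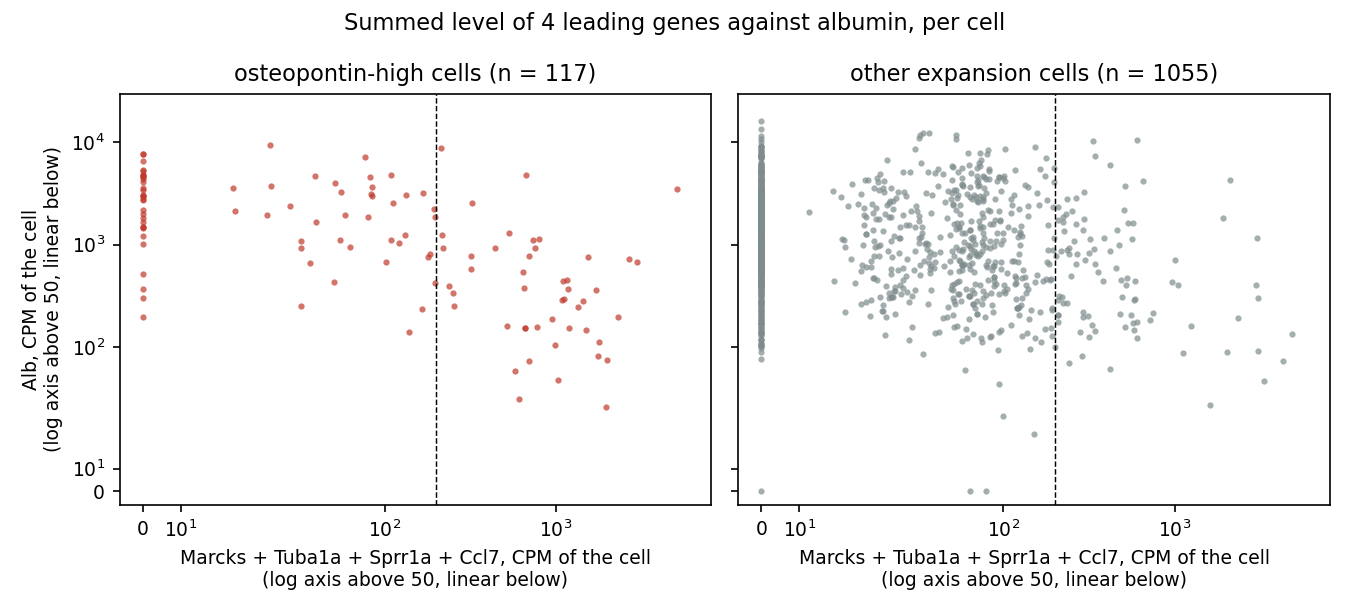
Alb (vertical) against the summed level of Marcks, Tuba1a, Sprr1a and Ccl7 (horizontal) in each cell, in CPM on axes that are logarithmic above 50 and linear below; the left panel holds the 117 osteopontin-high cells, the right panel the other 1055, and the dashed line marks 200 CPM. Right of the line lie 47 osteopontin-high cells and 95 others, and their median Alb is 358 and 476 CPM, against 2211 and 1101 CPM left of it.

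The comparison was repeated among cells under the limit. The 70 osteopontin-high cells under 200 CPM had 93 of 4342 measured genes higher (2.14%) and 191 lower (4.4%) than the 960 other cells under it, and 27 of the 93 were among the 156. Of 15 measured acute phase genes 9 were higher and 0 lower (median 0.62), of 22 secreted hepatocyte proteins 6 were higher and 1 lower (median 0.38), and of 10 hepatocyte markers 2 were higher and 0 lower (median 0.39). Alb stood at 2636 CPM in the osteopontin-high cells and 1837 CPM in the others, which is under 1.5-fold. Among genes of at least 100 CPM, the largest ratio belonged to Ly6d, a surface protein with a lipid anchor, at 239 and 89.6 CPM (1.42, 1.26 to 1.57). Orm2 stood at 296 and 115 CPM (1.36), Orm1 at 885 and 405 CPM (1.13), the fibrinogen genes Fgb at 2892 and 1409 CPM (1.04) and Fgg at 1475 and 732 CPM (1.01), and Saa1 at 1524 and 866 CPM (0.82). Ccl2 was higher here too, at 1178 and 513 CPM (1.20, 1.13 to 1.27), and Xist, Pigr and Enpp2 were lower (-1.28, -0.82 and -0.73). Of the 4 genes the limit is built on, Marcks and Sprr1a had log2 ratios of -0.02 and -0.04, while Tuba1a stood at 25.2 and 11.2 CPM and Ccl7 at 17.7 and 8.42 CPM. Sox4 had a log2 ratio of -0.07.

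Among cells at or over the limit, the 47 osteopontin-high cells differed from the 95 others by 175 of 4582 genes higher (3.82%) and 320 lower (6.98%), and 79 of the 175 were among the 156. Timp1 stood at 264 and 106 CPM (1.32), Vcam1 at 438 and 178 CPM (1.30), and Tm4sf4 at 802 and 389.7 CPM (1.04). On the low side, the T cell chemokine Ccl5 stood at 17.2 CPM in the osteopontin-high cells and 284 CPM in the others (-4.04, -4.70 to -3.46), H19 at 10.8 and 149.6 CPM (-3.79), and the cytochrome P450 gene Cyp2c29 at 24.4 and 118 CPM (-2.27).

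Other high-end groups of the same library overlapped with the osteopontin-high cells to different degrees. Of the 117 cells, 41 (35.0%, 26.5 to 44.4) were also in the top 10% by the summed share of Nes, an intermediate filament of progenitors, and Tuba1a. The overlap was 36 for Krt18, 34 for Vim, 22 for Clu, 18 for the acute phase list, 16 for Alb, 13 for the chemokine list, 11 for H19, 6 for the G2/M list and 4 for Xist. Each of these sets holds 117 cells, 10% of all, so the share is the same of both sets. The 19 cells left out for S100a6 UMIs stood at 1593 CPM of Spp1, 147 CPM of Marcks and 163 CPM of Alb, and 5 of them would have been osteopontin-high had they been kept.

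The same rule applied to the induction library gave 119 Spp1-high cells of 1194, in a library where Spp1 was rare. There 864 cells held no Spp1 UMI, and the last cell inside the limit held 2 Spp1 UMIs, so cells near the limit were chosen on single molecules. Spp1 per cell had a median of 1111 CPM and a highest value of 36322 CPM in the Spp1-high cells, and the other 1075 cells reached 352 CPM. Summed, Spp1 stood at 2864 and 36.1 CPM. The median cell held 8056 UMIs in the Spp1-high group and 6595 in the others. Of 5232 measured genes, 788 were higher (15.1%) and 587 lower (11.2%), and the median log2 ratio of all measured genes was 0.09.

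Genes higher in osteopontin-high expansion cells were often higher in Spp1-high induction cells as well. Of the 156, 143 were measured there, and 116 were higher, 4 lower and 23 not called. The 116 are 74.4% of the expansion list and 14.7% of the induction list. Spp1, which chose the cells in both libraries, is counted among the 156 and the 116. The 15 leading genes were all among the 116. Tuba1a stood at 183 CPM in the Spp1-high and 7.54 CPM in the other induction cells (4.60, 4.16 to 5.05), Marcks at 118 and 5.69 CPM (4.38), Tinagl1 at 245 and 12.3 CPM (4.32), Ccl2 at 1132 and 139 CPM (3.02) and Vim at 479 and 60.2 CPM (2.99). Of the 202 genes lower in expansion, 58 were lower (28.7% of the expansion list, 9.88% of the induction list), 17 higher and 106 not called. Whether the 2 overlaps differ was not tested, and the induction library is shallower.

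The measured genes of the ductal and progenitor list and the measured osteopontin receptors were mostly higher in Spp1-high induction cells. Without Spp1, 7 of 8 measured ductal and progenitor genes were higher and 0 lower (median 1.21), against 1 of 8 in expansion. Cd24a stood at 447 CPM in the Spp1-high and 203 CPM in the other induction cells (1.14, 0.99 to 1.29), Sox4 at 342 and 82.5 CPM (2.05) and Clu at 4784 and 1964 CPM (1.28). Sox9 stood at 93.3 and 73.8 CPM (0.34, 0.01 to 0.66) and was not called. Of 10 receptor genes 4 were measured, and 3 were higher. These were Cd44 at 532 and 154 CPM (1.79), Itgav at 388 and 161 CPM (1.27) and Itgb1 at 100.3 and 65.7 CPM (0.61). Itgb5 stood at 42.7 and 49.5 CPM (-0.21, -0.70 to 0.25) and was not called. Of 5 Notch genes 3 were higher, with Jag1 at 61.6 and 18.5 CPM (1.73). Krt7 and Krt19 had 0 UMIs in these cells too, and of 10 bile duct markers 1 was measured and 0 called.

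Many hepatocyte genes, but not all, were lower in Spp1-high induction cells. Of the 10 hepatocyte markers 4 were lower, 0 higher and 6 not called (median -0.48). Together they took 64905 CPM in the Spp1-high and 84971 CPM in the other induction cells. Hp stood at 14638 and 16403 CPM (-0.16) and was not called. Of 13 measured hepatocyte metabolism genes, 11 were lower and 0 higher (median -1.87). The level of Cyp3a11, a drug-metabolising cytochrome, was 276 CPM in the Spp1-high and 2409 CPM in the other induction cells (-3.13), that of Arg1, the last enzyme of the urea cycle, 10.9 and 94.9 CPM, and that of Bhmt, of methionine metabolism, 179.8 and 659 CPM. Of 23 secreted hepatocyte proteins 14 were lower and 0 higher (median -0.78), with Alb at 11303 and 21962 CPM (-0.96) and Apoa2 at 289 and 2859 CPM (-3.31). Of 16 acute phase proteins 11 were lower and 0 higher (median -1.33), with Saa3 at 3448 and 9255 CPM (-1.42). Of 7 measured G2/M genes, 6 were higher and 0 lower in Spp1-high induction cells (median 0.89), with Top2a at 46.7 and 25.1 CPM. With the top 5% of cells the direction turned, with 0 of 4 higher and 3 lower (median -0.92). The difference between the media in any of these ratios was not tested, and CHIR99021, TNFa and dexamethasone differed at once between 2 single libraries, so their parts cannot be told apart.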

How the data were processed

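The authors deposited whole-number UMI counts per gene and cell for 1 library in each medium. Per the submitters' processing notes, Cell Ranger 2.1.1 and the mm10 build were used. The annotation release and the cell calling were not given in the sources used here. No map from cells to animals was given, so each medium is 1 sample.

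From these deposited counts, cells with at least 500 genes and at most 25% mitochondrial UMIs were kept, and those with 3 or more S100a6 UMIs left out. UMIs were summed over the cells of a group and scaled to CPM. Ratios have 95% exact conditional binomial intervals, levels exact Poisson intervals and shares exact Clopper-Pearson intervals. PCR and free RNA are not covered by them. Genes count as measured from 20 CPM in the higher group, and as called from 1.5-fold with an interval that excludes 1. The calling code was tested on simulated data. Scrublet doublets were kept, and leaving them out was an alternative.

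Genes named are the 15 highest and 15 lowest ratios among called genes of at least 100 CPM, all genes of the ductal, osteopontin family, receptor, Notch and sex-linked lists, and of each other list the most abundant gene and the 2 largest ratios. Other genes named, such as the further called genes of a list and the genes of the 200 CPM split, and that limit itself were chosen after their values were seen. The cells, lists and rules were chosen with earlier results of these data known. Gene positions are from the GENCODE annotation of GRCm38, and promoter sequences from RefSeq. Python 3.11.15, numpy 2.4.6, scipy 1.17.1, pandas 2.3.3, scanpy 1.11.5 and matplotlib 3.10.9 were used.

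Alternatives were another fold, no CPM minimum, the top 5% or 20% of cells, cells chosen on a random part of the UMIs, equal weight per cell, thinning, other scalings, other cell filters, and cells split by sex-linked or G2/M transcripts.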

Additional observations from a re-analysis of the deposited data

Results flagged for a closer look

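Between the media, 4 genes were called higher in Spp1-high expansion cells and lower in Spp1-high induction cells, and 17 the other way. The difference between the media was not tested, and 4 of these genes, which the naming rule had chosen, are given here. Orm2, an acute phase protein gene, had a log2 ratio of 0.79 in expansion cells and -1.33 in induction cells. The mitotic genes had the opposite signs: Cenpa had -0.77 in expansion cells and 0.82 in induction cells, Top2a -1.46 and 0.89, and Ube2c -1.44 and 0.93. In the induction library these mitotic values rest on 47 to 70 UMIs in the Spp1-high cells. Of that group, 10 cells held 89.3% of the Ube2c UMIs, 78.7% of those of Top2a and 67.1% of those of Cenpa. In the expansion library these shares were 81.0%, 78.2% and 58.3%. With the top 5% of induction cells the log2 ratios were -0.83 for Cenpa, -0.89 for Top2a and -0.95 for Ube2c. The Orm2 value in the induction library rests on 28 UMIs, and 10 cells held 89.3% of them. In the expansion library, 10 cells held 65.5% of the Orm2 UMIs of the Spp1-high group.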

How the results depend on the processing

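No paired analysis was possible because each medium has 1 library. The cause of the changes listed here was not tested. Against 156 genes called higher and 202 lower in expansion cells, a 2-fold limit gave 49 and 25, no CPM minimum 500 and 702, and the top 20% of cells 68 and 55. Cells with Xist and no Y-linked UMIs gave 261 and 453, and those with Y-linked and no Xist UMIs 282 higher. The number lower was 464 with the top 5% of cells, 371 without mitochondrial and ribosomal protein genes and 304 in cells with fewer than 2 G2/M genes. In alternatives chosen after seeing the data, cells under 200 CPM of Marcks, Tuba1a, Sprr1a and Ccl7 gave 93 higher, and cells at or over it 320 lower. Against 788 higher and 587 lower in induction cells, a 2-fold limit gave 319 and 267, the top 20% 401 and 255, and cells under 200 CPM 512 and 299. No CPM minimum gave 1272 higher. Cells at or over 200 CPM gave 178 higher, from 52 Spp1-high and 22 other cells. Thinning gave 379 lower, and keeping S100a6 cells 943 lower.

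Directions turned for single genes in expansion cells. Under 200 CPM the log2 ratio was -0.016 for Marcks, -0.041 for Sprr1a, -0.69 for Sh3bgrl3, -0.065 for Sox4 and -1.59 for Anxa3. Marcks and Sprr1a are part of the sum that this limit caps in both groups, so their values are not independent of it. Marcks, Sprr1a and Anxa3 were under 20 CPM there. With the top 20% the log2 ratio was 0.088 for H19 and 0.021 for Serpina6. With cells chosen on a random part of the UMIs it was 0.11 for Serpina6. In cells with Xist and no Y-linked UMIs it was -0.22 for Hbegf and -0.093 for Dusp5, both under 20 CPM. In induction cells at or over 200 CPM, 52 Spp1-high cells were compared with 22 others. There the log2 ratio was 0.031 for Rnase4, -1.07 for Prom1, -0.0028 for Itgav and 0.45 for Saa3. For Cenpa, Top2a and Ube2c it was -0.15, -1.68 and -0.51. Under 200 CPM it was 0.092 for Bnip3. With the top 5% it was -0.83 for Cenpa, -0.89 for Top2a and -0.95 for Ube2c. After thinning it was -0.39 for Cenpa and -0.42 for Top2a, and with fewer than 2 G2/M genes -0.40 for Top2a. Top2a is on the G2/M list that chose these last cells, and it was under 20 CPM in them.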

Other observations

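Several genes under 100 CPM had ratios as large as those of the leading genes, and they were chosen after their values were seen. Hspb1, a small heat shock protein, stood at 28.7 CPM in the osteopontin-high cells and 3.80 CPM in the other expansion cells (log2 ratio 2.92). Tubb2b, a beta-tubulin, stood at 64.7 and 9.20 CPM (2.81), and Angptl4, which inhibits lipoprotein lipase, at 22.3 and 3.80 CPM (2.55). Serpine2, a protease inhibitor, stood at 39.8 and 9.04 CPM (2.14), Tead2, a partner of YAP, at 21.3 and 4.50 CPM (2.25), and the integrin gene Itga3 at 37.9 and 14.1 CPM (1.43). On the low side, Ccl5 stood at 16.6 and 68.4 CPM (-2.05) and Serpina7, the thyroxine carrier, at 21.7 and 54.5 CPM (-1.33).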
